A study of Mus musculus with 2 samples.

Results

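The genes of meiosis and germ cells Dazl, Sycp1, Sycp3, Hormad1, Syce1, Smc1b, Stag3 and Brdt, were read for DNA methylation in mouse embryonic fibroblasts (MEFs). The genes were chosen by name, 8 of the 22380 protein-coding genes of the annotation. Every measured CpG within 1 kb of the annotated start of each gene (its promoter window), and separately every CpG further along the gene (its body), was taken, which gave 306 of the 1790826 CpGs measured. Methylation came from reduced-representation bisulfite sequencing (RRBS), in which bisulfite leaves methylated cytosine to be read as cytosine and converts unmethylated cytosine, in 1 library each of Dnmt1+/+ and Dnmt1-/- MEFs. The Dnmt1-/- cells are homozygous for the hypomorphic n/n allele of Dnmt1, the gene of the maintenance methyltransferase, an allele of reduced function. Both lines also lack trp53, the gene of p53, and the Dnmt1+/+ line is therefore a trp53-/- control. The age of the embryos was not given. Expression was not measured in these 2 libraries, so the Dnmt1 allele and the fibroblast identity could be looked at through methylation only.

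In germ cells, chromosomes that enter meiosis condense along a protein axis, pair, and are zipped together by the synaptonemal complex while meiosis-specific cohesin rings hold the sister chromatids. Many genes of this programme have CpG-rich promoters that acquire methylation in the early embryo and keep it in somatic tissues. Dnmt1 acts on the hemimethylated CpGs that replication leaves behind, so cells short of it lose methylation as they divide.

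The libraries held 74636195 and 78401157 methylation calls, with a median of 29 and 30 calls per CpG and a lowest depth of 10. CpGs that lie in CCGG or TCGA are known from an earlier reading of these data to give raised values, so the means below are over the other 996064 CpGs unless stated, which averaged 45.0% in Dnmt1+/+ and 15.1% in Dnmt1-/-. Stag3 shows the difference between the 2 kinds of CpG. Its 24 other CpGs between -439 and +131 bp averaged 1.52% in Dnmt1+/+ and 1.99% in Dnmt1-/-, whereas of the 5 CCGG or TCGA CpGs between them, that at -329 bp read 36.9% and 33.3%, that at -240 bp 49.0% and 44.4%, that at -181 bp 73.4% and 61.9%, and that at -45 bp 73.3% and 81.8%. The CpG at +2 bp was the exception, with 0% in Dnmt1+/+ and 23.7% in Dnmt1-/-. Windows and bodies with 5 or more other CpGs were read, and 25 percentage points between the libraries was the limit for calling a rise or a fall. The design has no replicates, so every difference is between 2 libraries, and the 95% Wilson intervals on pooled calls cover counting error only. Distances are from the gene start to the cytosine of the CpG on the forward strand, negative upstream. Of 11 fibroblast genes listed, 6 promoters could be read and 4 were under 10% in both libraries. Over all promoters read, the upper quartile was 7.86% in Dnmt1+/+ and 2.57% in Dnmt1-/-, so such low values are not particular to fibroblast genes. The highest of the 6, that of the collagen gene Col1a2 (named after its value was seen), had 30.6% in Dnmt1+/+ and 7.60% in Dnmt1-/-.

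The bases just before the start are printed for the 4 genes in which at least 3 CpGs were measured there, because these are the letters whose methylation is described below. Capitals mark the measured CpGs outside CCGG and TCGA. All are 5′ to 3′ on the strand of the gene, from NCBIM37, at chr17:50432925-50433174 for Dazl (minus strand), chr3:95363349-95363598 for Hormad1 (plus strand), chr15:84962388-84962528 for Smc1b (minus strand) and chr5:138721234-138721467 for Stag3 (plus strand). The last 2 are cut to 141 and 234 bases, short of the neighbouring genes Ribc2 and Gpc2, which start at -142 and -235 bp on the opposite strand.
Dazl: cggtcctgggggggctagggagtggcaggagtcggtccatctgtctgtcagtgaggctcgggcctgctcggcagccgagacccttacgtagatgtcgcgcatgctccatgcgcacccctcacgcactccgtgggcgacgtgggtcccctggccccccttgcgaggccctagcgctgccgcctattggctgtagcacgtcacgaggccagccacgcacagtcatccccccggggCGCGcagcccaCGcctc
Hormad1: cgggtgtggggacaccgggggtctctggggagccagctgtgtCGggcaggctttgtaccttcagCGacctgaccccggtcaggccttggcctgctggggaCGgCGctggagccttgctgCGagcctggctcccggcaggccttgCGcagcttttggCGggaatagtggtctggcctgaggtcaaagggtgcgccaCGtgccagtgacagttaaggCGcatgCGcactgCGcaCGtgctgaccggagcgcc
Smc1b: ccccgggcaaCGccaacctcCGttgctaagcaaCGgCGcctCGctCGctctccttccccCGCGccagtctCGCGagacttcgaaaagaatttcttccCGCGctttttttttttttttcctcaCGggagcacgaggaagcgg
Stag3: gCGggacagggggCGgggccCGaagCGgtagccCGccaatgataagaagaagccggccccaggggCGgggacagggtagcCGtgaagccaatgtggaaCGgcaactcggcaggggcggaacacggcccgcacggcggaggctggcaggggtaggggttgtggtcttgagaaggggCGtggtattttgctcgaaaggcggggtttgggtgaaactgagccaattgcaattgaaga
The full 250 bases before the start held between 10 CpGs (Sycp3) and 25 CpGs (Smc1b) in the 8 genes. Of all protein-coding promoters, 53.2% had fewer than Sycp3 and 88.1% had fewer than Smc1b. Dazl had 23, of which 3 were measured outside CCGG and TCGA, all close to the start.

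Of the 8 promoter windows, 5 could be read, and 4 of these 5 fell by at least 25 points in Dnmt1-/-: Dazl, Sycp3, Hormad1 and Smc1b. None rose by that much. The other promoter read, that of Stag3, was already below 25% in Dnmt1+/+, so it could not fall by 25 points. Over all 12837 promoters that could be read, 7.10% fell by 25 points and 0.164% rose. Across them, the median level was 2.66% in the Dnmt1+/+ library and 1.21% in Dnmt1-/-, and the median change was -1.34 points. Most of those promoters had little methylation in Dnmt1+/+, so a closer background is the 775 promoters at 50% or more in Dnmt1+/+, of which 91.7% fell by 25 points. All 3 members at that level (Dazl, Sycp3 and Hormad1) fell, a share near this background. The median over the 5 members was 52.6% in Dnmt1+/+ and 24.7% in Dnmt1-/-, with a median change of -33.5 points.

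**Figure D1:**
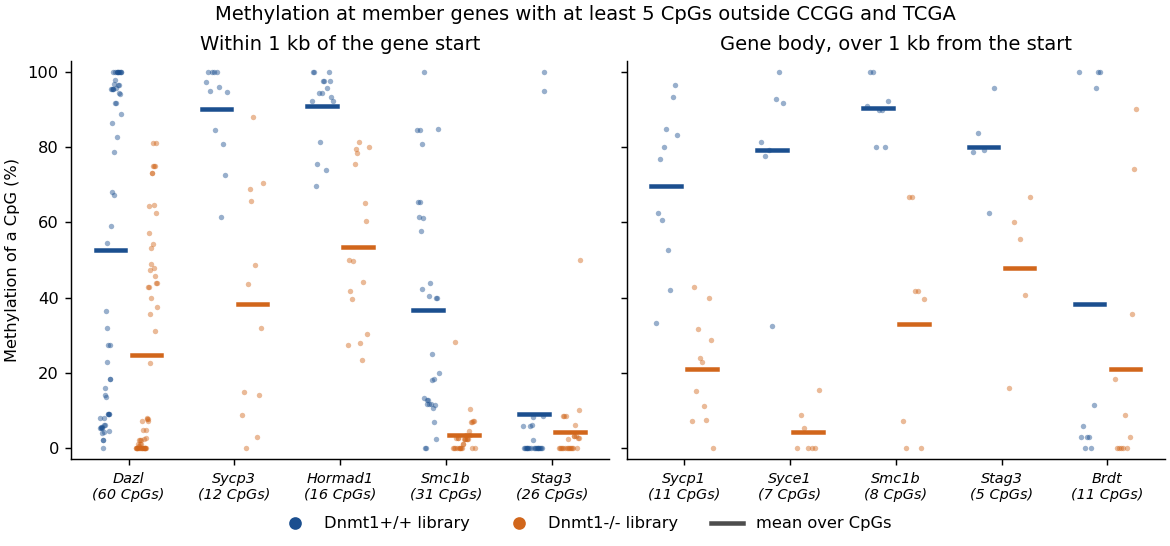
Methylation of each CpG outside CCGG and TCGA (y axis, %) in the promoter windows (left) and bodies (right) of the member genes with at least 5 such CpGs. Each point is a CpG, blue in the Dnmt1+/+ library and orange in the Dnmt1-/- library, and each bar is the mean over CpGs. The Hormad1 promoter keeps a mean of 53.4% in Dnmt1-/- and the Smc1b promoter 3.26%.

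At single CpGs, 85 of the 146 other CpGs in the members' promoter windows were called lower in Dnmt1-/- (58.2%) in Fisher's exact test (two-sided, Benjamini-Hochberg adjusted over all measured CpGs, threshold 0.05). The test called 44.2% of all other CpGs lower, and 7.11% of those within 1 kb of a protein-coding start. All promoters read had a median of 2.66% in Dnmt1+/+, whereas these 146 CpGs averaged 49.0% and so had more to lose. The share called lower was not counted at a like starting level. No member CpG of this kind was called higher, against 0.635% of all other CpGs, and none was higher at an unadjusted p under 0.05, although 10 of the 146 had a higher value in Dnmt1-/-. The test compares 2 libraries, not genotypes, and neighbouring CpGs share reads.

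The 5 members read had different levels in Dnmt1-/-. Hormad1 was highest with a mean of 53.4%, followed by Sycp3 with 38.2%, Dazl with 24.7%, Stag3 with 4.14% and Smc1b with 3.26%. The intervals of pooled calls in Dnmt1-/- did not overlap between the first 4 neighbours in this order, but those of Stag3 and Smc1b did (0.941% to 2.40% and 2.29% to 3.84%), and their pooled values of 1.50% and 2.97% were in the reverse order. Among the 775 methylated promoters, whose median was 87.8% in Dnmt1+/+ and 26.2% in Dnmt1-/- (quartiles 11.8% and 42.2%), 87.6% had a lower Dnmt1-/- mean than Hormad1, 69.2% a lower one than Sycp3 and 47.5% a lower one than Dazl. Measured against its own Dnmt1+/+ mean, Hormad1 kept 58.7%, Dazl 47.0% and Sycp3 42.3%, beside a median of 32.2% over those 775 promoters, and with pooled calls the order of Dazl and Sycp3 turned. Smc1b and Stag3, which are under 50% in Dnmt1+/+, kept 8.87% and 46.6%, beside a median of 47.4% over all promoters read. Those promoters had medians of only 2.66% in Dnmt1+/+ and 1.21% in Dnmt1-/-, so their share is not a matched background for either gene.

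**Figure D2:**
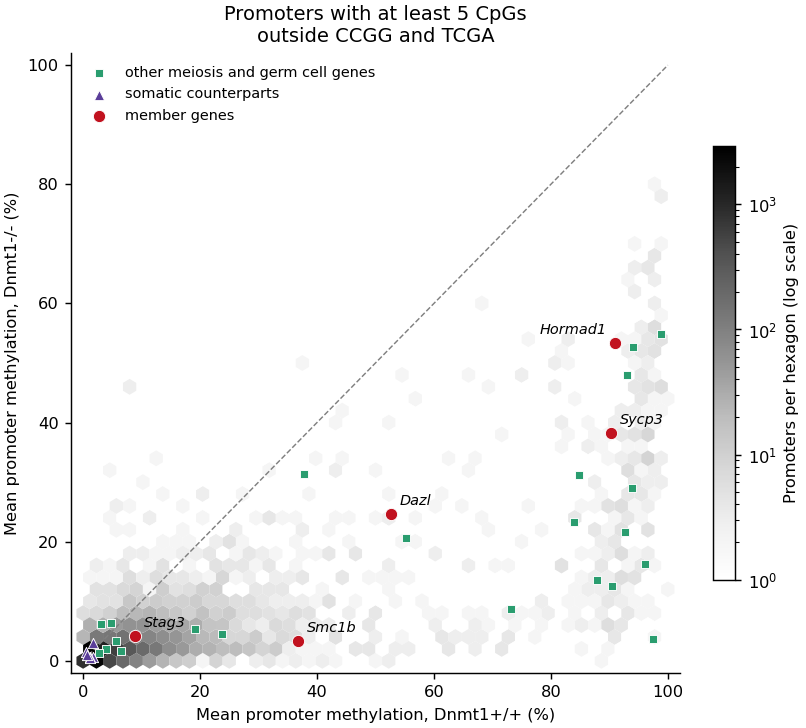
Mean promoter methylation in Dnmt1+/+ (x axis, %) against Dnmt1-/- (y axis, %) for all promoters with at least 5 CpGs outside CCGG and TCGA, as hexagons shaded by their number on a log scale, with the members as red circles, other meiosis and germ cell genes as green squares and somatic counterparts as purple triangles. The dashed line marks equal values. Hormad1 (91.0% and 53.4%) and Sycp3 (90.2% and 38.2%) lie in the band of methylated promoters at the right, Dazl and Smc1b lie at intermediate Dnmt1+/+ levels, and Stag3 lies near the lower left (8.90% and 4.14%).

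Dazl, an RNA-binding protein that germ cells need to enter meiosis, starts at position 50432924 of chromosome 17 on the minus strand. Its promoter window held 60 other CpGs, which averaged 52.6% in Dnmt1+/+ (2359 calls) and 24.7% in Dnmt1-/- (3697 calls), a fall of 27.9 points. With a depth of at least 20 calls the change was -23.6 points and no longer passed 25. Pooled calls gave 43.0% (95% interval 41.0% to 45.0%) and 17.5% (16.3% to 18.8%), and 36 of the 60 CpGs were called lower. These means hide a sharp step in position. The stretches named from here on were drawn after the CpG values had been seen.

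From the upstream side through the start of Dazl, the DNA was methylated in Dnmt1+/+ and kept much of it in Dnmt1-/-. The 7 CpGs from -441 to -359 bp averaged 96.8% and 53.6%, and the 15 from -16 to +138 bp averaged 93.1% and 55.9%. In the exon just past the start, 6 CpGs from +8 to +76 bp averaged 72.0% in Dnmt1-/- (54.2% to 81.2%), and the CpG at +23 bp kept 39 of 48 calls methylated (81.2%). Upstream, the CpG at -383 bp also read 81.2%. Further in, methylation ended in both libraries, but not at the same place. The CpG at +440 bp still had 21 of 22 calls methylated in Dnmt1+/+ (95.5%) but 3 of 38 in Dnmt1-/- (7.89%, adjusted p = 9.06e-11, Fisher's exact test), and the 4 CpGs from +397 to +470 bp averaged 67.1% and 6.48%. The next 13 CpGs, from +492 to +620 bp, averaged 20.3% and 1.46%. The last 16, from +637 to +825 bp, averaged 6.04% and 0.628%, so these were low in both libraries. This low stretch lies on both sides of a second annotated transcript start, 707 bp into the gene. Of the 26 Dazl CpGs at 80% or more in Dnmt1+/+, 13 stayed at 50% or more in Dnmt1-/- and 2 dropped to 20% or less.

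**Figure D3:**
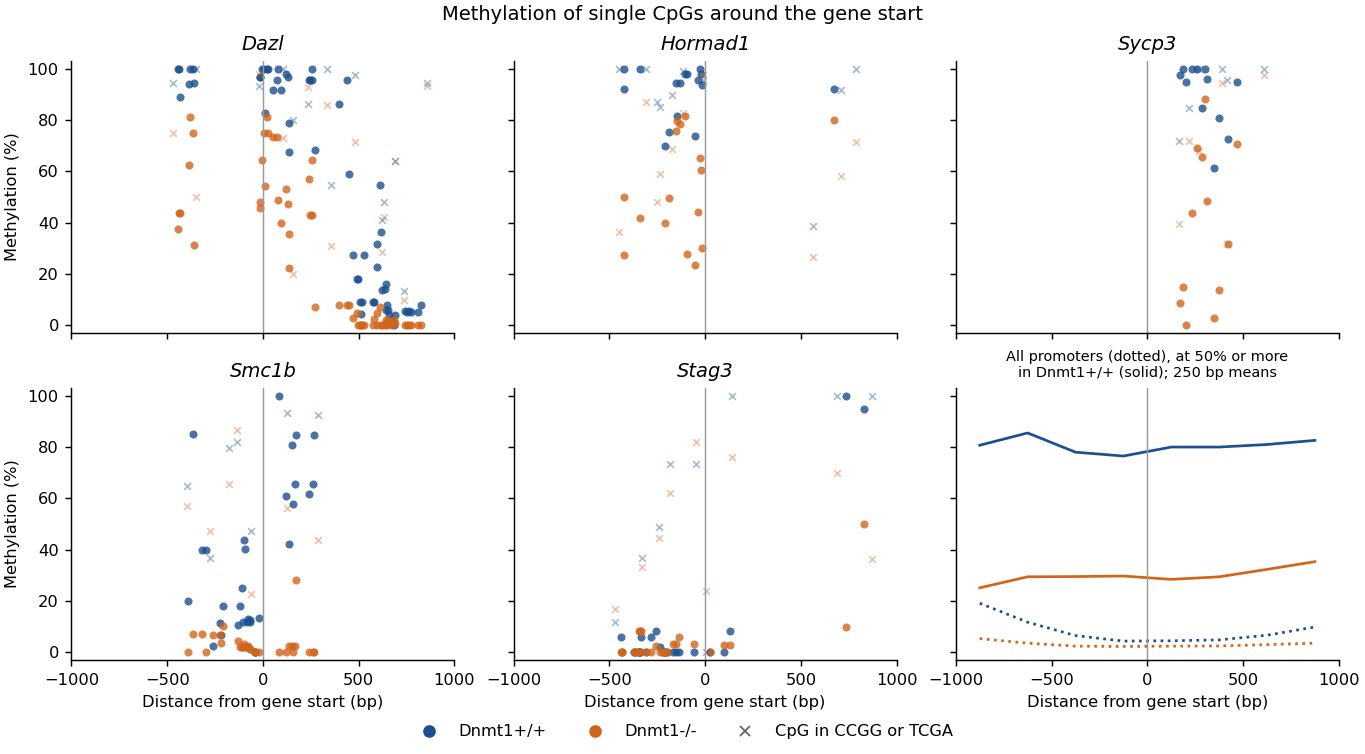
Methylation of single CpGs (y axis, %) by distance from the gene start (x axis, bp) for the 5 members whose promoter window could be read, blue for Dnmt1+/+ and orange for Dnmt1-/-, with CpGs in CCGG or TCGA as crosses. The last panel gives means in bins of 250 bp over all promoters (dotted) and over promoters at 50% or more in Dnmt1+/+ (solid). Dazl steps from high to low with distance into the gene. Among CpGs outside CCGG and TCGA, those of Smc1b do not exceed 28.2% in Dnmt1-/-, and those of Stag3 from -439 to +131 bp do not exceed 8.33% in either library.

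Sycp3 and Hormad1 build the axis along which meiotic chromosomes are organised, Sycp3 as a fibre of the axis itself and Hormad1 as a HORMA-domain protein that marks chromosomes not yet joined. They were the most methylated in Dnmt1+/+ of the 5 member promoters read. Sycp3 starts at position 87922314 of chromosome 10 on the plus strand, and its 12 other CpGs, all in an intron between +173 and +466 bp, averaged 90.2% in Dnmt1+/+ (754 calls) and 38.2% in Dnmt1-/- (696 calls). Pooled calls gave 91.6% (89.5% to 93.4%) and 37.6% (34.1% to 41.3%), and 10 of the 12 CpGs were called lower. The fall of 52.1 points was the largest among these 5. It was uneven from stretch to stretch in less than 300 bp.

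In the Dnmt1+/+ library the first 3 Sycp3 CpGs, from +173 to +200 bp, averaged 97.5%, and in Dnmt1-/- they averaged 7.91%. The CpG at +200 bp had 75 of 79 calls methylated in Dnmt1+/+ (94.9%) and 0 of 67 in Dnmt1-/-, which allows up to 4.48% (adjusted p = 7.20e-35, Fisher's exact test). The next 5 CpGs, from +234 to +312 bp, were as high in Dnmt1+/+ (96.2%) but kept 63.0% in Dnmt1-/-, with 30 of 34 calls methylated at +300 bp (88.2%, not called). The 3 CpGs from +347 to +421 bp were low again in Dnmt1-/-, at 71.6% and 16.2%. The last CpG, at +466 bp, was higher, at 94.7% and 70.5%. No CpG upstream of the Sycp3 start was measured, so these values are for the transcribed side only. In the Sycp3 body 2 other CpGs were measured, at 100% in Dnmt1+/+ and a mean of 46.9% in Dnmt1-/-, too few to be read.

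Hormad1 starts at position 95363599 of chromosome 3 on the plus strand. Its 16 other CpGs averaged 91.0% in Dnmt1+/+ (910 calls) and 53.4% in Dnmt1-/- (1064 calls), a fall of 37.6 points. Pooled calls gave 87.7% (85.4% to 89.7%) and 59.7% (56.7% to 62.6%), and 14 of the 16 CpGs were called lower. None of the 13 CpGs at 80% or more in Dnmt1+/+ dropped to 20% or less in Dnmt1-/-, and 8 stayed at 50% or more.

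The loss at Hormad1 was also uneven from stretch to stretch, and the CpGs from -208 to -18 bp are among the capitals of its printed sequence. The 5 CpGs from -424 to -186 bp averaged 87.5% and 41.7%. Next to them, the 4 CpGs from -150 to -106 bp averaged 92.0% and 78.8%, and 3 of the 4 were called lower. The fourth, at -147 bp, was not called and had 88 of 108 calls methylated in Dnmt1+/+ (81.5%) and 118 of 148 in Dnmt1-/- (79.7%). Only 12 bp closer to the start than the last of these 4, the CpG at -94 bp had 45 of 46 calls methylated in Dnmt1+/+ (97.8%) and 12 of 43 in Dnmt1-/- (27.9%, adjusted p = 1.25e-11, Fisher's exact test). The 6 CpGs from -94 to -18 bp averaged 93.1% and 41.9%, and all 6 were called lower.

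Of the 6 CpGs in this last stretch of Hormad1, 3 lie in known short motifs. TCCCGC, the core of an E2F-type site, and CACGTG, an E-box, were searched on both strands of the 250 bases before the start of each gene, and a position is that of the leftmost base of the match. The CpG at -94 bp lies in the TCCCGC match at -95 bp, on the opposite strand. Those at -55 and -18 bp lie in the CACGTG matches at -57 and -20 bp, and they read 73.9% and 23.3%, and 93.5% and 30.2%. TCCCGC also occurred in Sycp3 (-129 bp), Smc1b (-47 bp) and Stag3 (-234 bp), and in 20.4% of the 22380 promoters. CACGTG also occurred in Sycp1 (-94 bp), Sycp3 (-46 and -25 bp) and Brdt (-43 bp), and in 6.51% of promoters. Neither was found in these bases of Dazl or Syce1, and no match of one overlapped a match of the other. The CpG in the TCCCGC match of Smc1b, at -43 bp, had 0 of 17 calls methylated in Dnmt1+/+ and 0 of 16 in Dnmt1-/-, which allows up to 17.6% and 18.8%, and that of Stag3, at -233 bp, read 2.04% and 0% (0 of 65 calls, up to 4.62%). A match is a run of letters and not evidence of binding.

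Smc1b and Stag3 encode subunits of the cohesin ring of meiosis, the counterparts of Smc1a and of Stag1 and Stag2 in somatic cells. Both share their upstream bases with a gene on the opposite strand. Smc1b, at position 84962387 of chromosome 15 on the minus strand, had 31 other CpGs with a mean of 36.7% in Dnmt1+/+ (1875 calls) and 3.26% in Dnmt1-/- (1885 calls), a fall of 33.5 points. Pooled calls gave 28.2% (26.2% to 30.2%) and 2.97% (2.29% to 3.84%), and 22 of the 31 CpGs were called lower. Past the start, the 10 CpGs from +83 to +267 bp, in the exon and the intron that follows, averaged 70.3% in Dnmt1+/+ and 3.59% in Dnmt1-/-, and all 10 were called lower. At +267 bp, 22 of 26 calls were methylated in Dnmt1+/+ (84.6%) and 0 of 38 in Dnmt1-/-, which allows up to 7.89%. The 17 CpGs from -259 to -18 bp, on both sides of the Ribc2 start, averaged 14.7% and 2.98%. The 4 CpGs from -391 to -296 bp averaged 46.2% and 3.57%. The highest of the 31 CpGs in Dnmt1-/-, at +173 bp, had 28.2%.

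Stag3, at position 138721468 of chromosome 5 on the plus strand, was the member promoter that did not reach the 25-point change. Its Dnmt1+/+ mean of 8.90% left no room for a fall of 25 points. Its 26 other CpGs averaged 8.90% in Dnmt1+/+ (960 calls) and 4.14% in Dnmt1-/- (1130 calls), and pooled calls gave 5.62% (4.34% to 7.27%) and 1.50% (0.941% to 2.40%). Of the 24 CpGs from -439 to +131 bp, none exceeded 8.33% in either library and none was called. The difference between the libraries came from 2 CpGs in the intron, at +734 and +830 bp, which averaged 97.5% and 30.0% and were both called lower. With a window of 500 bp on either side, which leaves these 2 out, the change was 0.471 points. The CpG at +2 bp of Stag3, in CCGG, was the only promoter CpG of any member to be called higher, from 0 of 24 calls (which allows up to 12.5%) to 9 of 38 (23.7%, adjusted p = 0.0236, Fisher's exact test).

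Sycp1 and Syce1 form the transverse filaments and the central element of the synaptonemal complex, and Brdt is a bromodomain protein of the testis that binds acetylated histones. Their promoter windows could not be read. Sycp1, at position 102740023 of chromosome 3 on the minus strand, had 3 measured CpGs, all in CCGG or TCGA, which averaged 96.1% in Dnmt1+/+ and 52.4% in Dnmt1-/-. They differed widely, since the CpG at -599 bp went from 52 of 58 calls (89.7%) to 9 of 61 (14.8%), that at -842 bp from 17 of 17 to 17 of 30 (56.7%), and that at -784 bp from 74 of 75 (98.7%) to 78 of 91 (85.7%). All 3 were called lower. Brdt, at position 107760178 of chromosome 5 on the plus strand, had 1 other CpG, at +708 bp, with 42 of 45 calls methylated in Dnmt1+/+ (93.3%) and 3 of 33 in Dnmt1-/- (9.09%). All 6 CpGs of its window averaged 97.5% and 54.0%, and 4 were called lower. None of the 50 CpGs in the window of Syce1, at position 147973753 of chromosome 7 on the minus strand, was measured.

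Over the gene bodies, 5 members could be read, and 4 of the 5 fell by at least 25 points: Sycp1, Syce1, Smc1b and Stag3. None rose. Over all 11837 gene bodies that could be read, 83.7% fell by 25 points and 0.152% rose. The members' median of 79.4% in Dnmt1+/+ and 20.9% in Dnmt1-/-, with a median change of -48.7 points, stood beside 85.0%, 26.6% and -48.7 points over all bodies, so these bodies lost about what other bodies did. Of the 45 other CpGs in the members' bodies, 27 were called lower by Fisher's exact test (60.0%) and none higher, with none higher at an unadjusted p under 0.05. Over all other CpGs, in any part of the genome, 44.2% were called lower and 0.635% higher.

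Syce1 lost the most. Its 7 body CpGs averaged 79.4% in Dnmt1+/+ (194 calls) and 4.19% in Dnmt1-/- (208 calls), a fall of 75.2 points, and all 7 were called lower. Pooled calls gave 66.0% (59.1% to 72.3%) and 2.88% (1.33% to 6.15%). The loss was seen at all 3 measured places. At 2935 to 2960 bp the 2 CpGs averaged 95.8% and 7.70%, at 8552 bp the CpG had 13 of 14 calls methylated in Dnmt1+/+ and 0 of 22 in Dnmt1-/- (up to 13.6%), and the 4 CpGs at 9834 to 9914 bp averaged 67.8% and 3.49%.

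Sycp1 had 11 body CpGs over more than 100 kb, with means of 69.7% in Dnmt1+/+ (271 calls) and 20.9% in Dnmt1-/- (343 calls). Pooled calls gave 67.5% (61.7% to 72.8%) and 18.4% (14.6% to 22.8%), and 9 of the 11 were called lower. At 5780 bp the value went from 25 of 30 calls (83.3%) to 0 of 41 (up to 7.32%), while the 6 CpGs at 69606 to 69838 bp averaged 66.2% and 18.6%, and the CpG at 55478 bp read 93.3% and 40.0%. The Smc1b body, in contrast to its promoter window, kept some methylation, with 90.4% in Dnmt1+/+ (151 calls) and 32.9% in Dnmt1-/- (205 calls) over 8 CpGs. Pooled calls gave 91.4% (85.8% to 94.9%) and 35.6% (29.4% to 42.4%), and the Dnmt1-/- interval lay above that of the promoter window. The promoter window also had the lower Dnmt1+/+ mean. The depth in the body was low, with medians of 10 and 12 calls, and 4 of the 8 CpGs were called lower. Of the 8, 7 lay close together, from 46523 to 46737 bp. The Stag3 body fell by 32.3 points to 47.8% in Dnmt1-/- over 5 CpGs (121 and 135 calls), the highest Dnmt1-/- mean of the 5 bodies. Pooled calls gave 80.2% (72.2% to 86.3%) and 50.4% (42.0% to 58.7%), and 2 of the 5 CpGs were called lower.

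**Figure D4:**
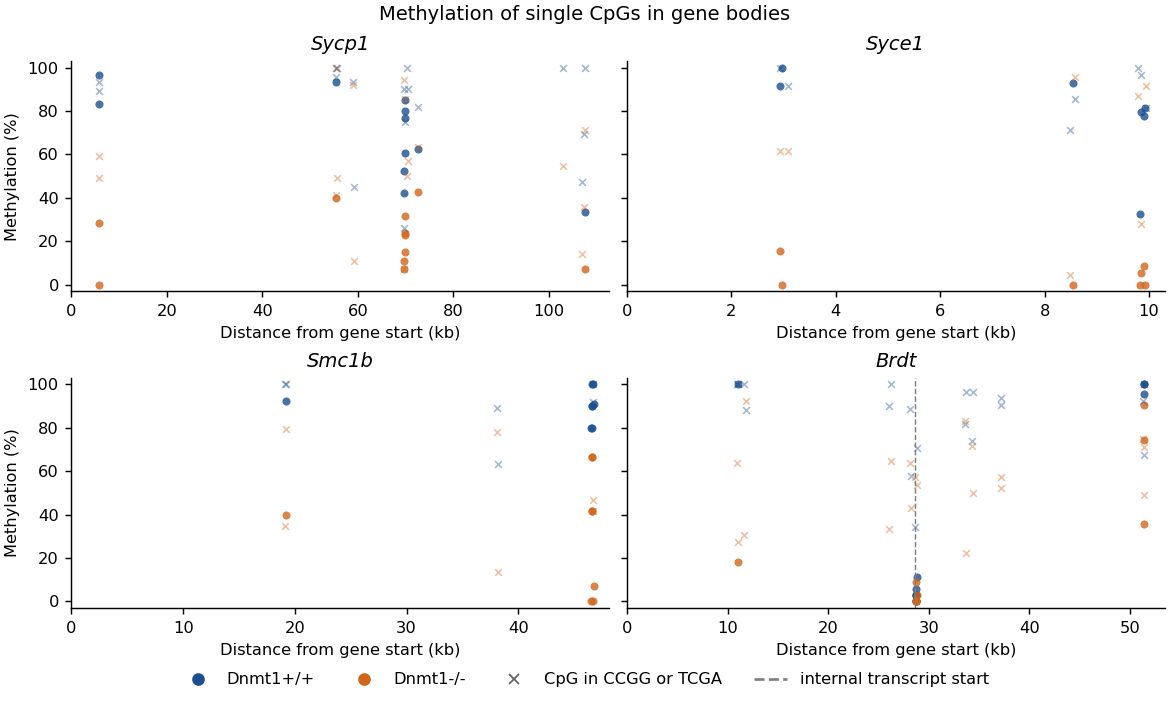
Methylation of single CpGs (y axis, %) by distance from the gene start (x axis, kb) in the bodies of Sycp1, Syce1, Smc1b and Brdt, blue for Dnmt1+/+ and orange for Dnmt1-/-, with CpGs in CCGG or TCGA as crosses. The dashed line in the Brdt panel marks the internal transcript start. Just past it, 7 CpGs outside CCGG and TCGA are at 11.4% or less in both libraries.

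Brdt was the body that did not reach the 25-point change. Its 11 CpGs averaged 38.3% in Dnmt1+/+ (349 calls) and 20.9% in Dnmt1-/- (379 calls), a change of -17.4 points. With calls pooled over CpGs the change was -11.0 points, with the promoter window included it was -23.0 points, and with all CpGs it was -25.1 points, which passes the limit. Most of these CpGs were low from the outset. The 7 in an exon from 28684 to 28791 bp, just past the annotated transcript start 28678 bp into the gene, averaged 3.67% and 1.67%, none was called, and none exceeded 11.4% in either library. The remaining 4 CpGs were all at 80% or more in Dnmt1+/+. Those at 51384 to 51408 bp, within 24 bp, averaged 98.6% and 66.7%, from 22 of 62 calls methylated (35.5%) at 51384 bp to 28 of 31 (90.3%) at 51408 bp in Dnmt1-/-. The fourth, at 11046 bp, went from 14 of 14 calls in Dnmt1+/+ to 2 of 11 in Dnmt1-/- (18.2%) and was called lower. Dazl had no measured body CpG, and Hormad1 had 1 outside CCGG and TCGA, at 84.6% and 41.2%.

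Taking promoters and bodies of all 8 genes, 83 other CpGs had 80% or higher in the Dnmt1+/+ library. In Dnmt1-/-, 21 of these were at 20% or less (25.3%), 56 were between 20% and 80% (67.5%) and 6 stayed at 80% or more (7.23%). Over all 377268 other CpGs that had 80% or higher in Dnmt1+/+, the shares were 42.9%, 50.9% and 6.26%. The low class took in all 4 of these CpGs in Syce1, 4 of 5 in the Smc1b promoter window, 3 of 8 in the Smc1b body and 4 of 10 in the Sycp3 window, but 2 of 26 in Dazl and 0 of 13 in Hormad1. Neighbouring CpGs share reads, so no test was made of the difference in shares.

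Other genes of the same programme were read from 4 lists, chosen with earlier results of these data known. Of 34 genes listed, 32 were found in the annotation and 22 could be read, and 13 of the 22 promoters fell by at least 25 points (59.1%) while none rose, against 7.10% and 0.164% of all promoters. Their median was 78.6% in Dnmt1+/+ and 13.1% in Dnmt1-/-, with a median change of -42.8 points. All 13 were at 50% or more in Dnmt1+/+, where 91.7% of all promoters fell, and 6 of the remaining 9 were under 10% in Dnmt1+/+ and so could not fall by that much. In the synaptonemal complex list 2 of 3 fell. Sycp2, which joins Sycp3 in the chromosome axis, went from 92.7% to 21.7% over 21 CpGs, and Syce3, of the central element, from 93.0% to 48.0% over 10. In the cohesin and axis list the 1 promoter read was that of Hormad2, a relative of Hormad1, which went from 84.0% to 23.3% over 17 CpGs, where Hormad1 kept 53.4%.

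Of the recombination genes 2 of 10 promoters fell and the other 8 did not. Msh4, which stabilises crossover intermediates, went from 97.5% to 3.70% over 11 CpGs (218 and 365 calls), a fall of 93.8 points and the largest of any listed promoter read, and Dmc1, the strand-exchange protein of meiosis, went from 55.3% to 20.6% over 7, a change that was -24.8 points, and so not a fall of 25, with a depth of at least 20 calls. All 8 germ cell regulators read fell, from between 73.1% and 98.8% in Dnmt1+/+ to between 8.71% and 54.8% in Dnmt1-/-. Tex101, a surface protein of germ cells, fell most in this list (96.1% to 16.2%). Another gene of the list fell more with all CpGs, in windows of 500 bp and with a depth of at least 20 calls. Tex14, which keeps the bridges between germ cells open, kept the highest level (98.8% to 54.8%).

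The somatic counterparts of the members that could be read had little methylation, as most promoters did. Over all 12837 promoters read, the upper quartile was 7.86% in Dnmt1+/+ and 2.57% in Dnmt1-/-. All 6 of the 8 listed that could be read were under 10% in both libraries, with 0.510% in Dnmt1+/+ and 1.46% in Dnmt1-/- at Smc1a, 1.74% and 0.621% at Smc3, 1.24% and 0.632% at Rad21, and 1.77% and 3.01% at Stag2 among cohesin genes. The bromodomain gene Brd2, a relative of Brdt, had 1.19% in Dnmt1+/+ and 0.517% in Dnmt1-/-. Stag1 and Brd3 had no other CpG measured in the window. Smc1b (36.7% and 3.26%) was thus above its somatic counterpart Smc1a in Dnmt1+/+, and within 2 points of it in Dnmt1-/-, while Stag3 had 8.90% and 4.14% over the same window as Stag2, or 1.52% and 1.99% from -439 to +131 bp alone.

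The genes whose pair of promoter means lay nearest to the members' median pair of 52.6% and 24.7%, which is that of Dazl, were BC043934 (53.2% and 24.5%), Col11a2 (53.4% and 23.9%) and Rln3 (51.9% and 26.5%), by distance in percentage points among 11261 genes with at least 10 other CpGs. The likeness is over 2 libraries only.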

How the data were processed

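Bisulfite libraries of Dnmt1+/+ and Dnmt1-/- MEFs, 1 each, were grouped by the genotype in their labels. Reads were checked, processed and mapped by the company that made the libraries. Per the labels, Bismark was used on the mm9 build, with no version given, and the settings and the conversion rate are not given in the sources used here. The deposited depths are counts of methylation calls per CpG, and the authors listed only CpGs with at least 10 calls in both libraries. The authors' percent values give the share of calls at a CpG that were methylated. Percent times depth gave whole numbers at 100% of CpGs (tolerance 1e-06), and these methylated calls entered the Fisher's tests. All positions fell on a CG of NCBIM37 (mm9).

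Gene starts, ends and exons came from GENCODE vM1. Bodies run from the start to the end of the gene, without the 1 kb next to the start. Each CpG counts once in a mean. The pooled percent is methylated calls over all calls of a window, and carries the Wilson interval. A CpG with 0 methylated calls allows up to 3 calls of its depth. Intervals and limits cover counting error only, since reads copied by PCR and not tagged as molecules are not independent. No p was taken over CpGs of a gene, because they share reads.

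The members, the gene lists and the separation of CpGs in CCGG or TCGA were chosen with earlier results of these data known. Named genes are the members and their somatic counterparts; in each other list, the gene with the largest fall and the one that kept the highest mean in Dnmt1-/- out of those with 50% or more in the Dnmt1+/+ library; the 3 genes nearest to the members' median pair; and any gene outside this rule is said to be so. The values of 1 listed somatic counterpart are not reported here. Rec114 and Meiob were not matched and were not analysed here. The promoter sequence was read from NCBIM37 for members with at least 3 measured CpGs in the 250 bases before the start. Alternatives were all CpGs, 500 bp windows, any annotated transcript start, a depth of at least 20, pooled calls, a fall of 50 points, at least 3 CpGs, bodies with the promoter window, an adjusted p under 0.01 and thinning to 10 calls. The test was checked on simulated calls. The tests ran in scipy 1.17.1 and numba 0.67.0, the tables in pandas 2.3.3 and numpy 2.4.6, and the plots in matplotlib 3.10.9, under python 3.11.15.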

Additional observations from a re-analysis of the deposited data

How the results depend on the processing

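No paired analysis was possible because there was a single library of either genotype, and for the same reason none could be left out. The 4 member promoters that fell by 25 points became 1 when a fall of 50 points was asked for, and the count lay between 3 and 5 under the other alternatives (3 with a depth of at least 20, 5 of 6 with all CpGs). The 4 member bodies that fell became 2 at 50 points and 1 with a depth of at least 20, where only 2 bodies could be read, and 5 or 6 with the promoter window or all CpGs included. Single CpGs called lower in the promoter windows went from 85 to 21 after thinning to 10 calls, and in the bodies from 27 to 14 after thinning and to 53 with all CpGs. Fewer calls, and more CpGs, enter these counts by construction. The change at the Stag3 promoter turned from -4.76 to 0.471 points, and that at Msh5, a partner of Msh4 named here after its values were seen, from -4.82 to 0.0395 points, in windows of 500 bp. The Dazl change grew from -27.9 to -41.7 points in windows of 500 bp. The count of other meiosis and germ cell promoters that fell, 13, lay between 10 and 15. No somatic counterpart fell under the alternatives run, but with means of at most 1.77% in Dnmt1+/+ none could fall by 25 points. Low depth limits the Smc1b, Syce1 and Stag3 bodies, which could not be read with a depth of at least 20. With 1 library per genotype the spread between cultures is not known.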
